A study of Mus musculus with 8 samples.

Results

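The 10 messages described here go under the group name hippocampal granule and pyramidal neuron messages, although some are known from other cells or tissues. They were followed through polyribosome-associated RNA of the mouse brain. They are Prox1, Zbtb20, St18, Lhx9, C1ql2, Npy2r, Dsp, Tspan18, Slc9a4 and Lct, 10 of the 21643 gene symbols that could be matched to rows of the deposited count table. The genes were chosen by their measured levels in hippocampus against cortex, with results of these data known, so that comparison is described here and not tested for them. For each gene the row of highest total count was used. All 10 passed the low-count filter.

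The mice were C57Bl/6, 7 to 9 weeks of age, and no genotype or agent beyond that strain is given. Mice placed in the conditioning context alone were the controls, and trained mice received contextual fear conditioning, in which a chamber is paired with foot shock. RNA was taken 1 h or 6 h later. Each combination of frontal cortex or hippocampus, control or conditioned, and 1 h or 6 h was represented by 1 library, 8 in all. The protocol in the labels describes dissection of prefrontal cortex and does not describe that of the hippocampus, and it does not say how many animals entered a library, so p-values measure the spread between these libraries, which may be technical. In such bulk samples fewer cells of a type and less RNA per cell cannot be told apart, and no value here places a message in granule or in pyramidal neurons.

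The hippocampus relays signals from granule neurons of the dentate gyrus, whose axons are the mossy fibres, to pyramidal neurons of the CA fields. Each of these neuron types holds its own set of transcription factors and surface proteins, and the neocortex is built from other excitatory neurons. Contextual fear memory draws on both the hippocampus and the prefrontal cortex, which is why both were sampled.

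Promoter sequences of 3 members are shown because C1ql2 and Dsp had the largest fitted tissue changes and Prox1 is a widely used marker of granule neurons. Each runs 5′ to 3′ over the 250 bases before the transcription start in RefSeq (GRCm38.p6), and capitals mark E-boxes, CANNTG, the core that basic helix-loop-helix factors bind. The counts were made on another build, mm9, and no position of theirs is used.
Prox1, chr1:190170828-190171077, minus strand: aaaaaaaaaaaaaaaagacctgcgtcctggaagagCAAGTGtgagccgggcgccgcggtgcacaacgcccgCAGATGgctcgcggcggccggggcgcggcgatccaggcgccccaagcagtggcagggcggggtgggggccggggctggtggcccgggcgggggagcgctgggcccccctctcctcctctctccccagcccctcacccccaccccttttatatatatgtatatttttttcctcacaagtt
C1ql2, chr1:120340332-120340581, plus strand: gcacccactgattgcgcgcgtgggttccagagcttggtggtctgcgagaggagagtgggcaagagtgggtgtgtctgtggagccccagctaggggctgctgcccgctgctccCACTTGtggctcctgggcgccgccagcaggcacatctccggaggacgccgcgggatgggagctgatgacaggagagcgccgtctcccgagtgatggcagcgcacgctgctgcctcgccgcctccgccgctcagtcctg
Dsp, chr13:38151044-38151293, plus strand: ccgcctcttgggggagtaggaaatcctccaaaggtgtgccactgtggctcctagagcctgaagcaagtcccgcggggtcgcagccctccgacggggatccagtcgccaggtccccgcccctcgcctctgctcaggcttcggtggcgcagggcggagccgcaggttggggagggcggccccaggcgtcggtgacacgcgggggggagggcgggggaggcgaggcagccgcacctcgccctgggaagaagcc
RefSeq windows were matched for 7 of the 10 members, 8 windows in all since Prox1 had 2. An E-box, which reads the same on both strands as written, lay in 6 of the 8 windows, against 66.2% of 32817 windows of the same length over all genes. TATAAA on either strand lay in 1 of 8, the Prox1 window above, against 12.4% of all. The cyclic AMP response element TGACGTCA lay in 0 of 8, against 1.55% of all. The windows shown held 20 CG dinucleotides for Prox1, 20 for C1ql2 and 22 for Dsp, where the median window held 6. The Lct window held 1. By chromosome, 6 of the 10 members (Prox1, St18, Lhx9, C1ql2, Slc9a4 and Lct) lie on chromosome 1, which carries 5.73% of the 11604 tested genes.

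Libraries held 2370973 to 5296986 counts. At 1 h, the conditioned library with the cortex label and that with the hippocampus label agree nearly to sampling noise. Over 11206 genes the mean ratio of the squared difference to its counting variance was 1.07, where counting noise alone gives 1. The next closest pair of libraries had 4.95. The conditioned 1 h libraries are called the conditioned 1 h pair, count as 1 sample and were left out of the fits. Values from the fits therefore rest on 6 libraries. The hippocampus control 6 h library also stood apart. It was the smallest, Kif5c, a kinesin motor, held 8.01% of its counts against 0.0382% to 0.545% elsewhere, and its TMM scaling factor was 0.732 against 0.974 to 1.15 in the others. Levels below are CPM, library-size scaled counts divided also by this factor. A count of 3, used as the limit for a count of 0, corresponded to 0.566 to 1.26 CPM before the factor.

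**Figure D1:**
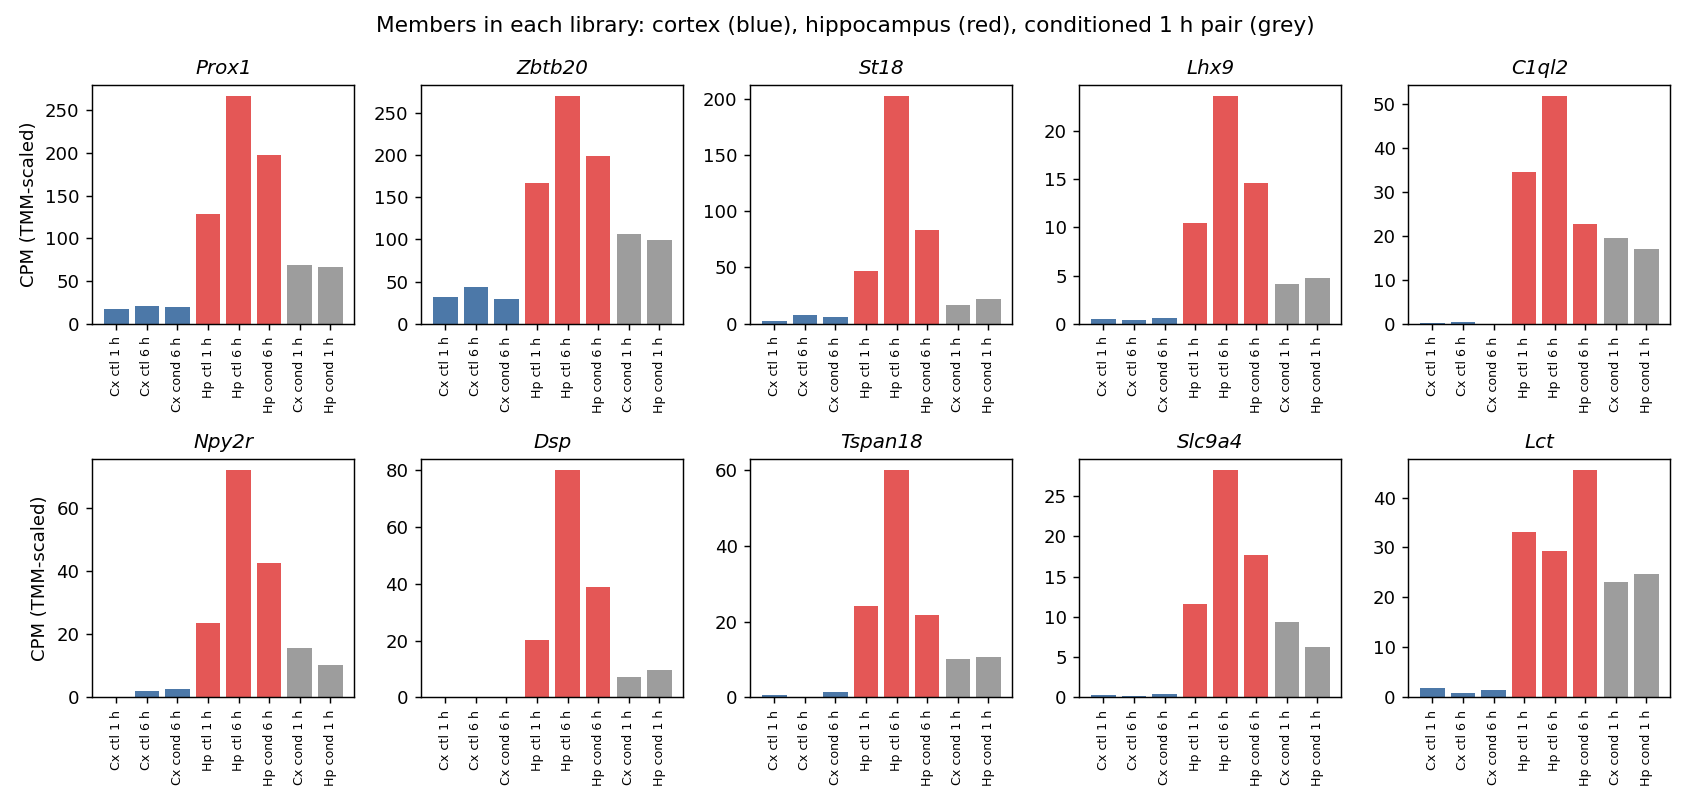
Level of each member (CPM after TMM scaling, linear axis from 0, 1 bar per library, no error bars since each combination had 1 library). Cx is cortex, Hp hippocampus, ctl control and cond conditioned. Every red bar (hippocampus) exceeds every blue bar (cortex) of its panel, and the grey bars of the conditioned 1 h pair lie between the 1 h controls.

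Hippocampus and frontal cortex differed for all 10 members as the choice of members fixed. The 3 hippocampus libraries lay above the 3 cortex libraries for 10 of 10 members, where 6.57% of tested genes did so. Nothing is read from this count. The log2 changes ran from 2.59 for Zbtb20 to 8.95 for Dsp with a median of 4.85, beside a median of 0.01 over all genes. What follows gives the levels themselves.

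Among the transcription factors, Prox1, a homeobox protein that maintains granule neuron identity, stood in the hippocampus at 128 CPM (control 1 h), 266 CPM (control 6 h) and 198 CPM (conditioned 6 h). In the cortex it stood at 17.3, 20.7 and 19.8 CPM in the same order. The cortex values spanned a narrow range and were well above counting zero, with 66, 108 and 102 counts, so Prox1 was detected in both tissues. Zbtb20, a zinc finger repressor that specifies hippocampal neurons and is also made by astrocytes, stood at 167, 270 and 199 CPM in the hippocampus. Its cortex levels of 31.9, 43.2 and 29.7 CPM were the highest of any member there. Prox1 and Zbtb20 had the smallest fitted tissue changes, and in each of the 3 conditions Zbtb20 had the smallest, 5.22 (95% counting interval 4.31 to 6.38) at control 1 h, 6.24 (5.31 to 7.35) at control 6 h and 6.70 (5.64 to 8.01) at conditioned 6 h.

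St18, a zinc finger factor of the Myt1 family, was the most variable member within the hippocampus, at 46.6 CPM in control 1 h, 202 CPM in control 6 h and 83.3 CPM in conditioned 6 h. Its cortex levels were 2.614, 7.49 and 5.62 CPM. The highest hippocampus level was 4.34 times the lowest. Lhx9, a LIM homeodomain factor known from the developing forebrain and thalamus, stood at 10.4, 23.6 and 14.6 CPM in the hippocampus, from 47, 41 and 63 counts. The cortex libraries held 2, 2 and 3 counts of it. Lhx9 had 3 rows in the table, and Zbtb20 had 2. The rows of 1 gene held nearly the same counts (192 and 167 against 196 for Lhx9, 2868 against 3455 for Zbtb20), and whether reads were counted in more than 1 row was not tested.

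C1ql2 encodes a secreted C1q-like protein of mossy fibre synapses, and its hippocampus levels were 34.6, 51.8 and 22.7 CPM. The cortex held 1, 2 and 0 counts. At control 1 h the tissue ratio was 132 (interval 23.4 to 5266) and at control 6 h 135 (36.3 to 1132). At conditioned 6 h it was at least 39.1-fold, taking 3 counts as the limit for the cortex library. Npy2r, a receptor of neuropeptide Y that restrains transmitter release, stood at 23.5, 72.0 and 42.5 CPM in the hippocampus. Its cortex counts were 1, 11 and 14, so that its ratio was 90.03 (15.8 to 3589) at control 1 h, 34.1 (18.4 to 70.1) at control 6 h and 15.7 (9.10 to 29.2) at conditioned 6 h. These intervals cover counting error only.

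Dsp encodes desmoplakin, which ties cell junctions to intermediate filaments. It stood at 20.2 CPM in control 1 h, 80.1 CPM in control 6 h and 38.8 CPM in conditioned 6 h of the hippocampus, and the cortex held 0, 1 and 0 counts. Its tissue ratio was at least 25.8-fold at control 1 h and at least 66.7-fold at conditioned 6 h. Dsp thus had fewer cortex counts than any other member. Tspan18, a tetraspanin of the cell membrane, stood at 24.2, 59.9 and 21.8 CPM against 3, 1 and 7 cortex counts. Slc9a4, a sodium-proton exchanger, stood at 11.5, 28.2 and 17.6 CPM against 1, 1 and 2 cortex counts.

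Lct encodes lactase, the milk-sugar enzyme of the intestinal brush border. It stood at 33.1 CPM in control 1 h, 29.4 CPM in control 6 h and 45.5 CPM in conditioned 6 h of the hippocampus, and at 1.83, 0.960 and 1.55 CPM in the cortex. Lct alone among the members had its lowest hippocampus level in control 6 h; the other 9 had their highest level there. Of those 9, C1ql2 and Tspan18 were lowest in conditioned 6 h and the remaining ones in control 1 h.

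Per kilobase of the GENCODE transcript paired with each row, the mean hippocampus level (n = 3 libraries) was 68.5 CPM for Zbtb20, 31.3 for St18, 24.9 for Prox1, 18.2 for C1ql2, 13.7 for Npy2r, 9.41 for Tspan18, 5.83 for Lct, 4.83 for Dsp, 4.83 for Slc9a4 and 3.29 for Lhx9. St18 spanned 13.2 to 57.2 per kilobase over those libraries and Prox1 16.2 to 33.6, so these neighbours did not differ beyond their spread. Nor did Dsp (2.11 to 8.35), Slc9a4 (2.91 to 7.12) and Lct (4.76 to 7.37). Zbtb20, at 54.0 to 87.3, overlapped only with St18. Within each library Zbtb20 was the higher of these, at 54.0 against 13.2 (control 1 h), 87.3 against 57.2 (control 6 h) and 64.4 against 23.6 (conditioned 6 h).

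The conditioned 1 h pair was not in the comparison that chose the members, but both 1 h controls were. Read by their labels, these libraries would give opposite responses at 1 h: all 10 members lay above the control in the library labelled cortex, by 3.32 times (Zbtb20) to 74.7 times (C1ql2, interval 13.05 to 2984), and all 10 lay below the control in the library labelled hippocampus, at 0.435 times (Tspan18) to 0.745 times (Lct). Neither contrast has a replicate or a test. The members were chosen to be low in the cortex controls and high in the hippocampus controls. Levels between those controls therefore give this pattern by construction, and the share of all genes with it was not counted. Prox1 stood at 69.2 and 66.5 CPM in the pair, cortex label first, between the 1 h controls at 17.3 and 128 CPM. C1ql2 stood at 19.5 and 17.0 CPM, between 0.261 and 34.6 CPM. Dsp, which was at 0 counts in the cortex control, had 32 and 40 counts. Taken as a ratio, the distance from the cortex control was the larger one, with few cortex counts for most members. On the linear scale given below the pair lay near the middle, at median positions of 0.51 and 0.46. The ratios to the hippocampus control, 0.435 to 0.745, were no further from 1 than some differences among the 3 hippocampus libraries, whose highest level was 1.55 (Lct) to 4.34 (St18) times the lowest.

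On a linear scale from 0 (cortex control 1 h) to 1 (hippocampus control 1 h), the members had a median position of 0.51 in the library labelled cortex and 0.46 in the library labelled hippocampus. They ranged from 0.33 (St18) to 0.80 (Slc9a4) in the former and from 0.42 (Tspan18) to 0.73 (Lct) in the latter. With the counts of all members summed, the positions were 0.51 (95% counting interval 0.47 to 0.55) and 0.48 (0.44 to 0.53). Over 93 other genes at least 4-fold higher in the hippocampus control the medians were 0.41 in either library, with quartiles of 0.28 and 0.53 in the former. These genes were picked by the same control libraries that define 0 and 1. The members were chosen by a comparison that also held 6 h libraries, so the medians are not like for like. Lct lay above these upper quartiles in both libraries, at 0.68 and 0.73. Between the libraries of the pair, 9 of 10 members had a ratio whose interval held 1. The remaining one, Npy2r, had 43 counts under the hippocampus label and 69 under the cortex label, a ratio of 0.66 (interval 0.44 to 0.98), in the direction opposite to the labels.

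**Figure D2:**
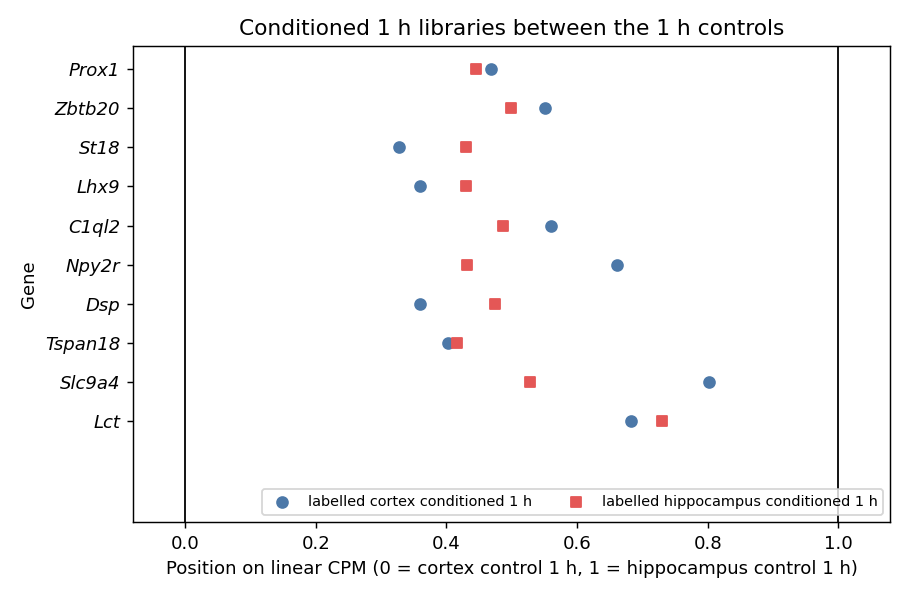
Position of each member in the conditioned 1 h pair (horizontal axis, linear CPM, 0 the cortex control 1 h library and 1 the hippocampus control 1 h library; no replicates). Circles are the library labelled cortex, squares the library labelled hippocampus; all 20 points lie between 0.33 and 0.80.

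The comparison of 6 h with 1 h among control libraries covers time since exposure to the context together with time of day. It was not used to choose the members. At 6 h, 3 of the 10 members were called higher and 0 lower, where 12.8% of tested genes were called higher and 23.7% in either direction. St18 rose by 1.86 on the log2 scale (SE 0.44, edgeR adjusted p = 0.00924), Dsp by 2.01 (SE 0.61, adjusted p = 0.0248) and Npy2r by 1.68 (SE 0.54, adjusted p = 0.0312). For St18 both tissues moved the same way, from 46.6 to 202 CPM in the hippocampus and from 2.614 to 7.49 CPM in the cortex. For Dsp the cortex went from 0 to 1 count, so the estimate rests on the hippocampus, 91 counts against 139.

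The other 7 did not pass. Their log2 changes were 1.07 (Slc9a4), 0.88 (Lhx9), 0.81 (Tspan18), 0.66 (Prox1), 0.58 (C1ql2), 0.55 (Zbtb20) and -0.40 (Lct), with adjusted p from 0.213 to 0.578. The median over the members was 0.84, beside -0.04 over all genes. Within the hippocampus controls the 6 h to 1 h ratio of scaled counts was above 1 for 9 members, with a median of 2.35, and for 8 members with a median of 1.504 when library totals were used without TMM factors. Without TMM factors C1ql2 was at 0.957 and Zbtb20 at 1.03.

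The 3 time calls depended on single libraries. Fits of 5 libraries have 1 residual degree of freedom, against 2 in the fit of 6. Each call was lost without the cortex control 1 h, the hippocampus control 1 h or the hippocampus control 6 h library, with adjusted p of 0.129, 0.284 and 0.114 for St18, 0.145, 0.652 and 0.337 for Dsp, and 0.258, 0.231 and 0.338 for Npy2r. The log2 changes in these fits were 1.92, 1.73 and 1.40 for St18, 2.01, 2.48 and 3.63 for Dsp, and 1.39, 3.22 and 1.24 for Npy2r. Without a hippocampus control library, 1 of the times is left with a cortex control alone. The cortex controls held 0 and 1 counts of Dsp and 1 and 11 of Npy2r. The last 2 changes of Dsp had SEs of 2.82 and 2.37, so their positive sign is no sign of stability. With the trend of GC content and transcript length removed, Npy2r changed by 0.62 (adjusted p = 0.427) and was not called, whereas C1ql2, the member of highest GC content (63.4%, median of tested genes 50.2%), changed by 2.57 (adjusted p = 0.00405) and Zbtb20 by 1.09 (adjusted p = 0.0342), so that 4 members were called higher where 4.42% of genes were. With all 8 libraries the time comparison averaged control and conditioned libraries at each time and took in the conditioned 1 h pair. That is a different comparison, and none of the 3 was called in it. Without the cortex control 6 h library the log2 change of Tspan18 was 1.31.

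**Figure D3:**
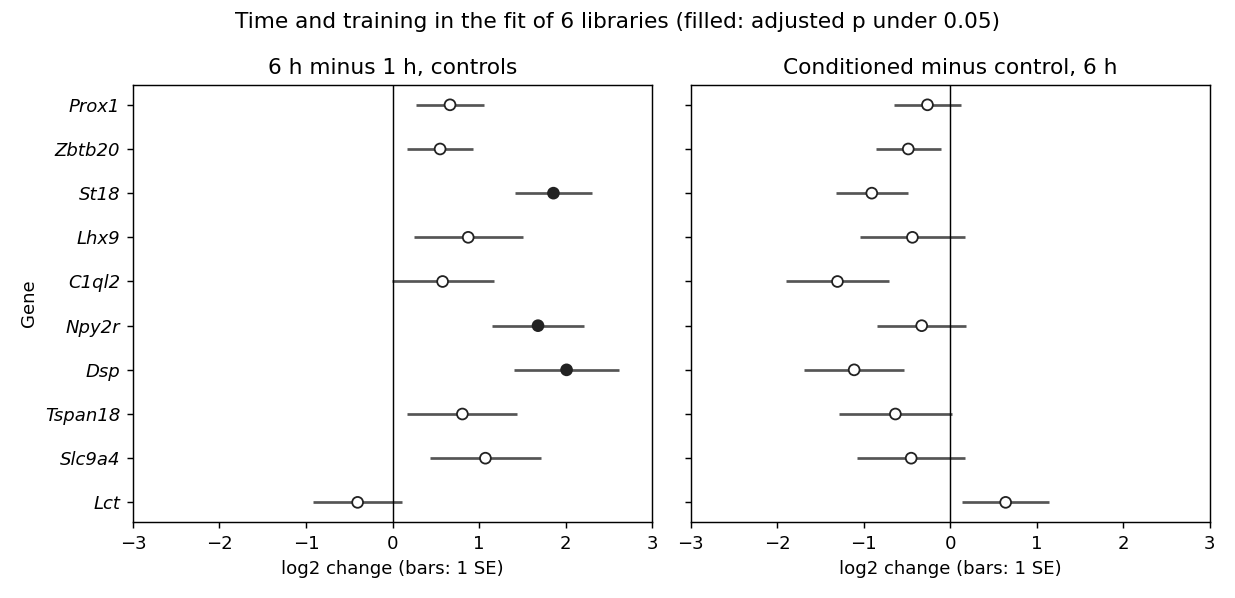
Log2 change of each member in the fit of 6 libraries (horizontal axis; bars are 1 SE), at the left 6 h minus 1 h among controls and at the right conditioned minus control at 6 h. Filled points, St18, Npy2r and Dsp at the left, had an edgeR adjusted p under 0.05; at the right none is filled.

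The comparison of conditioned with control libraries at 6 h asks whether messages on polyribosomes differ after fear conditioning. No member was called, and 0.0% of tested genes were. At an unadjusted p under 0.05 stood C1ql2 and St18, 2 of 10, where 4.13% of genes did. In the hippocampus, C1ql2 stood at 22.7 CPM in the conditioned and 51.8 CPM in the control library, with 0 and 2 counts in the cortex, a log2 change of -1.30 (SE 0.59, edgeR adjusted p = 0.902). Dsp differed by -1.11 (SE 0.58), St18 by -0.91 (SE 0.42) and Lct, the only positive one, by 0.64 (SE 0.50), all with an adjusted p of 0.902. The 9 negative changes ran to -0.26 for Prox1, and the median was -0.47, beside 0.03 over all genes. These changes share the control 6 h libraries with the time comparison, and for 9 of 10 members the hippocampus control 6 h library was the highest of all 8 libraries.

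Over all rows edgeR called 0 of 15555, with 620 at an unadjusted p under 0.05, DESeq2 called 0, with 485, and limma-voom 0, with 734. Within the hippocampus alone, where there is no test, the conditioned to control ratio of scaled counts lay between 0.364 (Tspan18) and 1.55 (Lct), with 9 intervals below 1 and 1 above. Over 10596 genes the mean ratio of the squared difference to its counting variance was 84.2 between these libraries. Intervals that leave out 1 therefore say little about the members, and their share over all genes was not counted. Without TMM factors the ratio for Prox1 was 1.00, for Zbtb20 0.990 and for Tspan18 0.489. Without the cortex control 6 h library, the only control left at 6 h was the hippocampus library that stood apart by its Kif5c share. The log2 change of St18 was then -1.24 (SE 0.43), a value that rests on that 1 control library.

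Other markers of hippocampal neurons came from lists of textbook markers, chosen with earlier results of these data known. Their shares are therefore no independent check. They gave a mixed picture by tissue, beside 1.61% of tested genes called higher and 1.68% called lower. Of 15 tested granule neuron markers, 5 were higher in the hippocampus and 0 lower (median log2 change 0.67). They included Tdo2, an enzyme of tryptophan breakdown (2.89, SE 0.61, edgeR adjusted p = 0.00736), Glis3 (2.60), Maml2, a Notch coactivator (1.92), and Sema5a, a guidance protein (1.85). Of 9 CA1 markers, 5 were higher and 0 lower (median 1.38), among them Dcn, the proteoglycan decorin (3.54), Fibcd1 (3.37), Gpr161 (2.71) and Pou3f1, a POU-domain factor (1.52). Of 7 CA3 markers, Grik4, a kainate receptor subunit, was higher (1.995) and Coch was lower (-2.69). Of 7 CA2 markers, Stard5 (2.23) and Amigo2 (2.07) were higher. None of 5 tested mossy cell markers was called, and those of highest level were Ajap1 (-0.32) and Calb2 (1.33, edgeR adjusted p = 0.0616). Of these markers Dcn, Fibcd1, Tdo2, Gpr161 and Glis3 had larger changes than Zbtb20, and Dcn and Fibcd1 larger ones than Prox1.

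**Figure D4:**
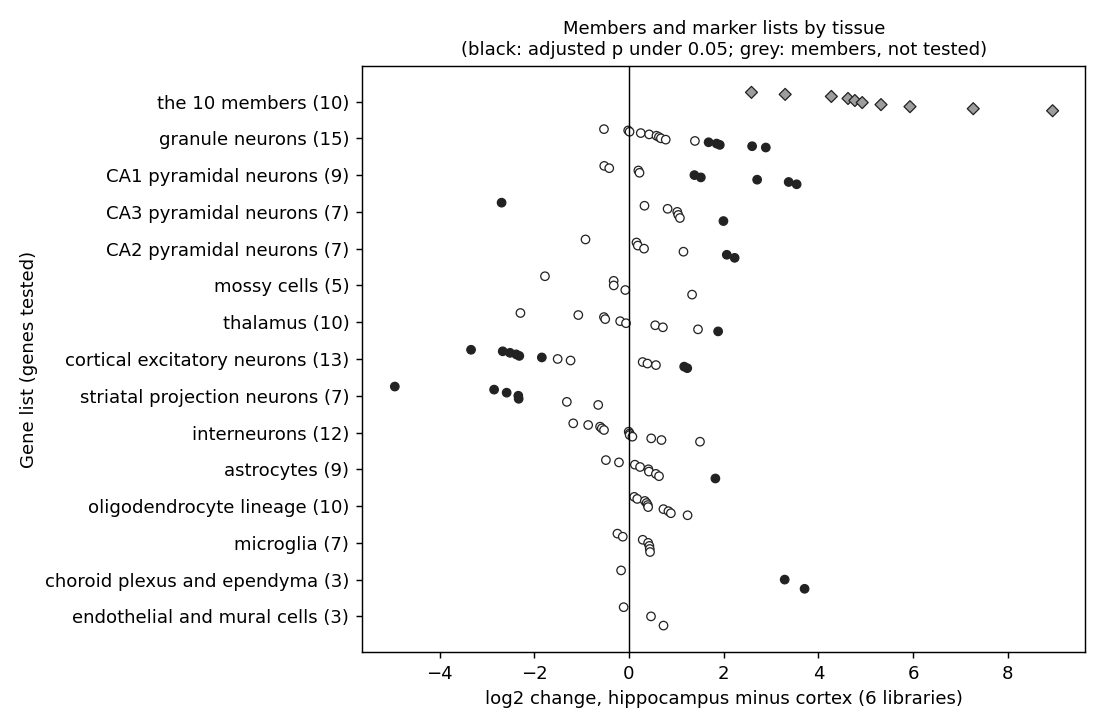
Log2 change between hippocampus and cortex (horizontal axis, fit of 6 libraries) for the members and for each tested gene of 14 marker lists, 1 point per gene, with the number tested in brackets. Grey diamonds are the members, for which no test is given; black points had an edgeR adjusted p under 0.05. Granule, CA1, CA2, thalamic, astrocyte and choroid plexus markers have black points at positive changes alone. CA3 and cortical markers have them on both sides, and striatal markers at negative changes alone.

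Markers of other cells that a dissection could hold were measured in the same way. Of 10 tested thalamic markers 1, Prkcd, was higher (1.88), and the summed level of the list was 134 to 166 CPM in the hippocampus and 121 to 123 CPM in the cortex. Gbx2 was at 0 counts in all 3 hippocampus libraries and Shox2 at 0 in 2 of them and at 2 counts in the conditioned 6 h library. The cortex libraries held 1, 3 and 0 counts of Gbx2 and 0 of Shox2, so neither tells the tissues apart. Of the 10 tested, 4 had a positive change and the rest a negative one (median -0.12). Plekhg1 (1.46, edgeR adjusted p = 0.0571) and Slc17a6 (0.55) were positive. Gbx2, Shox2, Plekhg1 and Slc17a6 were named after their values were seen. The part of thalamic tissue in the level of Lhx9, which thalamic neurons also make, was not tested. Choroid plexus markers Ttr, a thyroid hormone carrier (3.71), and Kl (3.29) were higher in the hippocampus, 2 of 3 tested. Of 13 cortical markers 6 were lower, among them Foxp2 (-3.33), Lamp5 (-2.67) and Mef2c (-2.51), and 2 were higher, named after their values were seen, Nr4a2 (1.23) and Etv1 (1.17). Striatal markers were lower for 5 of 7, among them Ppp1r1b (-2.85), Drd1 (-2.58) and Tac1 (-2.34). Gfap was the 1 astrocyte marker of 9 that was called (1.82). Of 12 interneuron, 10 oligodendrocyte, 7 microglial and 3 vascular markers none was called. Among those of highest level the changes were 0.015 for Cck and 0.69 for Sst, 0.405 for Mbp, 0.43 for Csf1r, and 0.47 for Rgs5 and 0.73 for Pdgfrb.

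The hippocampus control 6 h library, where 9 members peaked, also held more of the granule list: 2336 summed CPM, against 562 in control 1 h and 841 in conditioned 6 h. C1ql3, a relative of C1ql2, made up 487 CPM of it and Pter 397 CPM, genes singled out after their values were seen. By time, 5 of 15 granule markers were called higher and 0 lower, where 12.8% of all tested genes were called higher and 23.7% in either direction. The astrocyte list was at 3106 CPM there, against 1484 and 1878, most of it from Aldoc (1474 CPM) and Slc1a2 (1310 CPM). By time, 4 of its 9 genes had a positive change (median -0.02), with Aqp4 called higher and Gfap lower, from 89.9 to 44.3 CPM. Aldoc, Slc1a2 and Aqp4 were named after their values were seen. In the same library Fibcd1, a CA1 marker, was at 7.49 CPM against 54.6 and 39.7, and Ttr was at 4.61 CPM against 41.1 and 55.5. The whole choroid plexus list summed to 177 CPM there, against 139 and 208. Enpp2, named after its values were seen, made up most of that sum in each library, 155.5 CPM there against 76.1 and 125.1. The sum therefore says little about the rest of the list. By time, 0 of the list's 3 tested genes were called and 2 had a positive change. Of 9 CA1 markers 1 was called higher and 2 lower by time, beside the same shares of all genes. The summed CA1 list was 376 CPM there, against 422 and 454. The part of the makeup of this library in the members' time and training values was not tested.

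Over the 6 libraries the members' profiles were alike, with Pearson's r between pairs of members from 0.91 to 1.00 (45 pairs, median 0.98), a description of points that share libraries and fall into the 2 tissues on which the members were chosen. Among 8791 other genes of sufficient level, Myo5b, a myosin motor of membrane traffic, had the profile nearest to the members' mean (r = 0.996, n = 6 libraries), with 109, 137 and 128 CPM in the hippocampus and 25.4, 30.3 and 31.0 CPM in the cortex. Shisa6, an auxiliary protein of AMPA receptors (0.995), Nrp1, a semaphorin receptor (0.994), Map4k4, a kinase (0.993), and Map4, a microtubule protein (0.993), followed. In the conditioned 1 h pair, which this ranking did not use, Shisa6 stood at 124 and 121 CPM between 9.15 and 244 CPM in the 1 h controls.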

How the data were processed

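RNA associated with polyribosomes was counted in 8 mouse brain libraries. The authors deposited raw counts, whole numbers in 28157 rows named by RefSeq transcript. The submitters' processing notes name build mm9 and TopHat 1.3.1, CASAVA 1.7, limma 3.12.3 and edgeR, with no role for each. Which counter was used, and whether it read strand, was not given in the sources used here. Libraries were depleted of ribosomal RNA, per the labels' protocols, and cDNA was amplified by SPIA and PCR, without molecular identifiers, so intervals and the limit of 3 counts cover counting error only. Amplification of this kind and reads shared between rows can shift levels of single genes.

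Rows were given symbols through RefSeq and GENCODE tables of GRCm38; 594 rows had none. Members and lists were chosen with earlier results of these data known. Tests used edgeR 4.0.16 in R 4.3.3 (robust quasi-likelihood test, TMM factors, default low-count filter by tissue, Benjamini-Hochberg adjustment over all 15555 rows at 0.05) on 6 libraries, with tissue and 3 conditions as terms and 2 residual degrees of freedom. An SE is the log2 change divided by the square root of its F statistic. Intervals of the ratio of 2 counts are exact (Clopper-Pearson, 95%, scipy 1.17.1). All members were named; of each list, the called genes with the largest tissue change, at most 4, or, with none called, up to 2 by level; a few genes that this rule names are not reported here. Genes most like the members were the 5 with the highest Pearson correlation to their mean scaled profile at an average log2 CPM of at least 3. Alternatives were DESeq2 1.42.0, limma-voom 3.58.1, upper-quartile factors, no filter, GC and length offsets, all 8 libraries, summed rows and each library left out. The fit was tested on simulated data.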

Additional observations from a re-analysis of the deposited data

Results flagged for a closer look

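Among the 4 libraries labelled cortex, the library labelled cortex conditioned 1 h stood far above the others for 8 of the 10 members: its gap to the next library, as a share of the whole range, was 0.933 for Prox1, 0.947 for Lhx9, 0.980 for C1ql2, 0.841 for Npy2r, 0.974 for Dsp, 0.884 for Tspan18, 0.979 for Slc9a4 and 0.961 for Lct, above Dixon's 95% critical value for 4 values. Chance gives about 1 such case in 20 groups of unselected values, a rate that does not hold here: the other 3 libraries are those in which the members were chosen to be low. The members are also not independent of each other, since 1 library is the high one in all 8. Among the 4 libraries labelled hippocampus no member had such a gap.

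Conditioned against control at 1 h, 10 of 10 members were higher in the library labelled cortex and lower in the library labelled hippocampus. That difference was not tested, since each contrast has 1 library a side, and the libraries of the pair were nearly alike in their counts. The controls are libraries in which the members were chosen to be low or high, so levels between them give this pattern by construction. The share of all genes with this pattern was not counted.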

How the results depend on the processing

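With all 8 libraries 6350 rows were called for time (3652 with 6 libraries) and 0 for tissue (541; 1493 at an unadjusted p under 0.05 in edgeR). That time comparison averages control and conditioned libraries at each time, so it is not the comparison made with 6 libraries. The direction of the members by tissue was fixed by their choice and says nothing about stability. Upper-quartile factors gave 2231 for time and 341 for tissue and moved the median time change of all rows from -0.01 to -0.17. GC and length offsets gave 1103 for time, 796 higher and 307 lower against 2055 and 1597, and 995 for tissue. With no low-count filter 921 rows were called for tissue. Leaving out 1 library at a time gave 0 (without hippocampus control 1 h) to 6888 (without cortex control 6 h) for time, 0 to 2093 for training and 136 to 858 for tissue. The causes were not tested.

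By time, the sign was negative in the averaged comparison of 8 libraries for Zbtb20 (-0.049), C1ql2 (-1.42), Tspan18 (-0.29) and Slc9a4 (-0.34). The sign of the comparison among controls turned with GC and length offsets for Prox1 (-0.24) and Lhx9 (-0.35). It also turned without the hippocampus control 6 h library for Lhx9 (-0.24), Tspan18 (-2.34) and Slc9a4 (-0.34). By training, the comparison with 8 libraries averages conditioned minus control at 1 h and at 6 h. It brings in the conditioned 1 h pair and differs from the comparison at 6 h alone. The 8 libraries gave 0.35 for Prox1, 0.16 for Zbtb20, 0.075 for St18, 0.17 for Lhx9 and 0.77 for C1ql2. The values were 0.80 for Npy2r, 0.60 for Dsp, 0.30 for Tspan18 and 0.84 for Slc9a4. The values that follow are for the comparison at 6 h alone. GC and length offsets gave 0.036 for Prox1 and 0.095 for Lhx9. Without the hippocampus control 6 h library the changes were 0.028 for Prox1, 0.66 for Lhx9, 2.37 for Tspan18 and 0.93 for Slc9a4. Without hippocampus conditioned 6 h they were 0.0062 for Lhx9, 0.56 for Npy2r, 1.17 for Tspan18 and 0.32 for Slc9a4; these last fits compare cortex libraries with 0 to 14 counts of those messages, apart from Prox1. Over fits that each leave out 1 library, the time change ran from -0.24 to 1.065 for Lhx9, -2.34 to 1.309 for Tspan18 and -0.34 to 1.197 for Slc9a4, and the training change from -0.52 to 0.028 for Prox1, -0.72 to 0.66 for Lhx9, -0.87 to 0.56 for Npy2r, -1.37 to 2.37 for Tspan18 and -0.69 to 0.93 for Slc9a4. Limma-voom and upper-quartile factors ended the time calls of Dsp (adjusted p = 0.0946 and 0.0631) and Npy2r (0.0688 and 0.0764). DESeq2, no filter and summed rows changed no member's call.

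The median position of the members in the conditioned 1 h pair was 0.73 and 0.75 on log2 CPM and 0.20 and 0.19 with the 6 h controls as references, cortex label first. No paired analysis was possible because each combination of tissue, training and time had 1 library and no replicate numbers; the fit itself compares the tissues within each condition. Cortex counts of 0 to 14 limit every tissue ratio of the members other than Prox1, Zbtb20 and St18.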
